A study of Mus musculus with 6 samples.

Results

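The proteasome subunit genes of mouse muscle precursor cells were followed after forced expression of NUR77, an orphan nuclear receptor encoded by Nr4a1. They are the genes whose GENCODE M21 symbol runs from Psma to Psme followed by a number, without the inducible subunits Psmb8, Psmb9 and Psmb10. This rule gave 40 of the 23154 gene identifiers in the tables, of which 16 belong to the core particle and 24 to its regulators. The 24 are called regulatory subunits here, although Psmd5, Psmd9 and Psmd10 among them are assembly chaperones rather than parts of the finished complex. The cells were C2C12, an established mouse myoblast line that can fuse into myotubes. HA-NUR77 cells carried pINDUCER20b-HA-NUR77, a doxycycline-inducible construct for epitope-tagged NUR77, and GFP cells carried pINDUCER20b-GFP as the control. Both lines were seeded, given doxycycline (Dox) at 1 µg/mL after 24 hours, and lysed 18 hours later. Polyadenylated RNA was sequenced from 3 dishes of each line. Since each construct is represented by 1 stable line, the construct cannot be told apart from other differences between the lines, and p-values measure the spread between dishes.

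The proteasome is the main protease of the cytosol and nucleus and degrades proteins tagged with ubiquitin. Its barrel-shaped core is built of alpha subunits (Psma), which form the gated outer rings, and beta subunits (Psmb), which form the inner rings and hold the proteolytic sites. A regulatory particle of Psmc and Psmd subunits binds, unfolds and feeds in the tagged substrate, and other activators (Psme) can dock in its place. In muscle this system removes myofibrillar and regulatory proteins, and its activity is known to rise in atrophy.

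Proteasome transcripts were modestly higher in HA-NUR77 cells. By edgeR's quasi-likelihood test with Benjamini-Hochberg adjustment over the 12509 genes tested (threshold 0.05), 8 of the 14 core subunits tested and 9 of the 24 regulatory subunits tested rose, which is 57.1% and 37.5%, beside 12.4% of all genes tested. None of the 38 fell by edgeR, DESeq2 or limma-voom, while 13.2% of all genes tested fell by edgeR. In this edgeR fit 0 of the 38 were lower at an unadjusted p under 0.05. The 14 core subunits together took 1911, 1817 and 1928 CPM (reads scaled by library total and TMM factor) in the HA-NUR77 libraries, against 1569, 1631 and 1620.0 CPM in the GFP libraries. The 24 regulatory subunits took 4223, 4150.0 and 4321 CPM in the HA-NUR77 libraries, against 3508, 3654 and 3830.0 CPM in the GFP libraries. Each HA-NUR77 sum lay above each GFP sum in both classes. The median log2 fold change was 0.24 over the core subunits and 0.19 over the regulatory subunits, against 0.0077 over all genes tested. In bulk RNA these values are shares of the sequenced message. More proteasome message per cell, less of other messages and a changed mix of cells cannot be told apart.

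Individual changes were small. The fitted fold change ran from 1.01 (Psma1) to 1.35 (Psmb7) over the core subunits and from 0.903 (Psme4) to 1.71 (Psme2) over the regulatory subunits. All 14 core subunits and 21 of the 24 regulatory subunits had a positive log2 fold change, and the negative ones were Psmc6, Psmd9 and Psme4. In 12 of the 14 core and 17 of the 24 regulatory subunits, every HA-NUR77 library was above every GFP library, which held for 23.0% of all genes tested in this direction.

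**Figure D1:**
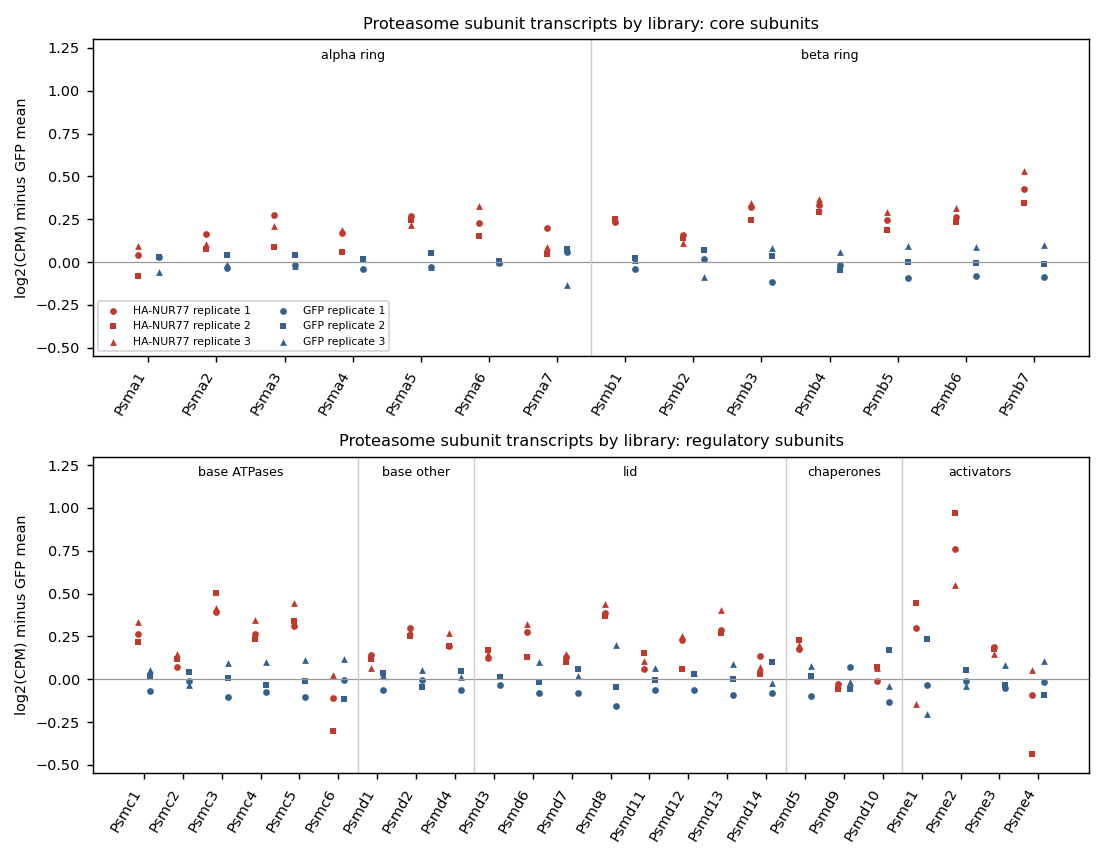
Level of each tested subunit in each library, as log2 CPM minus the mean log2 CPM of the GFP libraries; each point is 1 library, core subunits above and regulatory subunits below, grouped by role. The HA-NUR77 points lie above 0 for most members, and Psme2 reaches furthest.

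Of the 7 alpha subunits, which gate the entrance to the core, Psma5 and Psma6 rose. The summed level of the 7 was 852 ± 35.2 CPM in HA-NUR77 cells and 765 ± 19.6 CPM in GFP cells (SD, n = 3 each). Psma5 had 99.7, 98.2 and 96.1 CPM in the HA-NUR77 libraries, against 81.1, 85.9 and 81.1 CPM in the GFP libraries. The groups did not overlap, and the difference was 1.19-fold (log2 fold change 0.25, SE 0.061, adjusted p = 0.0244 by edgeR). Psma6 was 1.18-fold higher (log2 fold change 0.24, SE 0.068, adjusted p = 0.0381 by edgeR), with a mean of 134 ± 8.21 CPM in HA-NUR77 cells and 113 ± 0.401 CPM in GFP cells. The other 5 did not pass: the log2 fold change was 0.019, adjusted p = 0.865 by edgeR for Psma1, and lay between 0.11 (Psma2) and 0.19 (Psma3) for the rest. For Psma1 the 95% interval of the fold change, 0.903 to 1.14, spans 1. Psma8, the testis form of an alpha subunit, had 0 reads in all 6 libraries.

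Of the 7 beta subunits, 6 rose, all but Psmb2. The summed level of the 7 was 1032, 1005 and 1063 CPM in the HA-NUR77 libraries, against 806, 845 and 873 CPM in the GFP libraries, without overlap. Whether the beta ring differs from the alpha ring was not tested. Psmb7 (ENSMUSG00000026750, chr2:38588036-38644087, minus strand, build GRCm38) encodes the subunit with trypsin-like activity. It had 229, 216 and 246 CPM in the HA-NUR77 libraries, against 159.8, 169 and 182 CPM in the GFP libraries. The lowest HA-NUR77 library stood clear of the highest GFP library, and the difference of 1.35-fold was the largest fitted in the core (log2 fold change 0.44, SE 0.081, adjusted p = 0.00885 by edgeR).

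The other catalytic subunits moved the same way. Psmb5, which carries the chymotrypsin-like site, had 94.8, 91.1 and 98.0 CPM in the HA-NUR77 libraries, against 75.0, 80.1 and 85.5 CPM in the GFP libraries. Psmb6, which carries the caspase-like site, had 164, 161 and 170.5 CPM in the HA-NUR77 libraries, against 129, 137 and 145 CPM in the GFP libraries. Neither gene's groups overlapped. Psmb5 was 1.18-fold higher (log2 fold change 0.24, SE 0.072, adjusted p = 0.0463 by edgeR), close to the threshold, and Psmb6 was 1.21-fold higher (log2 fold change 0.27, SE 0.069, adjusted p = 0.0263 by edgeR). The 3 catalytic genes summed to 490.1 ± 23.0 CPM in HA-NUR77 cells and 387 ± 24.3 CPM in GFP cells (SD, n = 3 each).

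Among the structural beta subunits, Psmb4 (ENSMUSG00000005779, chr3:94884093-94886961, minus strand), a late-joining part of the ring, had 142, 138 and 146 CPM in the HA-NUR77 libraries, against 112, 109.5 and 118 CPM in the GFP libraries. Psmb1 had 198, 201 and 200.4 CPM in the HA-NUR77 libraries, against 164, 172 and 170.0 CPM in the GFP libraries, and Psmb3 had 110.0, 105 and 112 CPM in the HA-NUR77 libraries, against 81.3, 90.4 and 93.3 CPM in the GFP libraries. In all 3 the groups were separate. The fold change was 1.26 for Psmb4 (log2 fold change 0.33, SE 0.063, adjusted p = 0.00995 by edgeR), 1.19 for Psmb1 (adjusted p = 0.0226) and 1.23 for Psmb3 (adjusted p = 0.0233). Psmb2 did not pass, with a log2 fold change of 0.14, adjusted p = 0.164 by edgeR. Psmb11, the thymus-specific form of the chymotrypsin-like subunit, had 1, 0 and 0 reads in the HA-NUR77 libraries and 0, 1 and 2 reads in the GFP libraries.

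The promoter windows of 4 core genes are shown here to set 2 catalytic genes, Psmb5 and Psmb6, and Psmb4 beside Psma2, which did not pass. Psma2 is not an unchanged gene, since its groups did not overlap. With the length and GC correction described below, none of the 4 passed. The log2 fold change was then 0.067 for Psmb5, 0.13 for Psmb6, 0.19 for Psmb4 and 0.20 for Psma2. With the replicate block added to that correction, Psmb4, Psmb6 and Psma2 passed as higher and Psmb5 did not. Sequences are from RefSeq on GRCm38.p6, 300 bases each, from 250 before to 50 after the annotated start, 5′ to 3′ on the gene's strand. They lie at chr14:54617946-54618245 (minus strand) for Psmb5, chr11:70525107-70525406 (plus strand) for Psmb6, chr3:94886909-94887208 (minus strand) for Psmb4 and chr13:14612992-14613291 (plus strand) for Psma2. Capitals mark matches, on either strand, to the motifs searched: TGACNNNGC (core of the antioxidant response element, bound by NFE2L1 and NFE2L2), AAAGGTCA (the element bound by NUR77 as a monomer), GCCATNTT (YY1 core), CCGGAAG (bound by ETS factors), the CCAAT box and GAAANNGAA (core of the interferon-stimulated response element).
Psmb5: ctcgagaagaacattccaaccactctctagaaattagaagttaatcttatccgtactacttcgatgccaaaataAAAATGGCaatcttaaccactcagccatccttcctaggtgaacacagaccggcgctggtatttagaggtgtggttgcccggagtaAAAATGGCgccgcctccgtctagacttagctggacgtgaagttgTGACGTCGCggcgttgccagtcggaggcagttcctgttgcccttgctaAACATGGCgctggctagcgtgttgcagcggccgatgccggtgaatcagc
Psmb6: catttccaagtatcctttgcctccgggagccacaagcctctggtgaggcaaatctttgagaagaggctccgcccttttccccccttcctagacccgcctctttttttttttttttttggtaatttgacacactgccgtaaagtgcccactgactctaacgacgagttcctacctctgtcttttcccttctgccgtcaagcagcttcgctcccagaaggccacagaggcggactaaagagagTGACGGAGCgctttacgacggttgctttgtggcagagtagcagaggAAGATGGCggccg
Psmb4: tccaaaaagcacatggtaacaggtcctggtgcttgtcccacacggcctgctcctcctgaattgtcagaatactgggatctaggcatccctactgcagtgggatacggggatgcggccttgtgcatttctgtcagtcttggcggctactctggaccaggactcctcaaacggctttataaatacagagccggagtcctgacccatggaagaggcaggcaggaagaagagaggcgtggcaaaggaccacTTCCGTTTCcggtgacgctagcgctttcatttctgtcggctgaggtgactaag
Psma2: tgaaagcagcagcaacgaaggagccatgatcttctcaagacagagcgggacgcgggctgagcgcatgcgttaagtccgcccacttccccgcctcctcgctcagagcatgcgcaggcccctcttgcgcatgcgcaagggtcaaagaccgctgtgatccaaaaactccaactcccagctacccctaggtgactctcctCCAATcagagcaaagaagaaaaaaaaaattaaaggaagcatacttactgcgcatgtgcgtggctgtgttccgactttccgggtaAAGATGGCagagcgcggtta
Psmb5 has the antioxidant element core 47 bases before the start, and YY1 letters at 176 and 91 bases before the start and at base 2 after it. Psmb6 has the antioxidant element core 9 bases before the start and YY1 letters at base 38. The capitals of Psmb4 are the interferon-element letters 3 bases before the start, and those of Psma2 are a CCAAT box 54 bases before the start and YY1 letters at base 31.

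The regulatory particle has a base, which carries the ATPases that unfold the substrate, and a lid, which removes ubiquitin. Of the 6 base ATPases, Psmc1, Psmc3, Psmc4 and Psmc5 rose, and Psmc2 and Psmc6 did not pass. Psmc3 (ENSMUSG00000002102, chr2:91054009-91066369, plus strand) had 549.6, 594 and 559 CPM in the HA-NUR77 libraries, against 389.5, 421 and 447 CPM in the GFP libraries. It was the most abundant ATPase in both groups, the groups did not overlap, and the difference was 1.35-fold (log2 fold change 0.44, SE 0.082, adjusted p = 0.0095 by edgeR). Psmc5 had 169, 172 and 185 CPM in the HA-NUR77 libraries, against 127, 135 and 147 CPM in the GFP libraries, again without overlap, and was 1.29-fold higher (log2 fold change 0.36, SE 0.079, adjusted p = 0.0155 by edgeR).

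Psmc1 had 191, 185 and 200.4 CPM in the HA-NUR77 libraries, against 151, 161 and 165 CPM in the GFP libraries, and Psmc4 had 139.6, 137 and 148 CPM in the HA-NUR77 libraries, against 111, 114 and 125 CPM in the GFP libraries. Both were higher in every HA-NUR77 library, by 1.21-fold for Psmc1 (edgeR adjusted p = 0.0246) and 1.22-fold for Psmc4 (edgeR adjusted p = 0.0272). Psmc2 had a log2 fold change of 0.11, adjusted p = 0.205 by edgeR. Psmc6 had 179, 156 and 196 CPM in the HA-NUR77 libraries, against 193, 179 and 209.8 CPM in the GFP libraries. Its groups overlapped, each HA-NUR77 library was below the GFP library of the same number, and the 95% interval of its fold change, 0.777 to 1.08, spans 1 (log2 fold change -0.13, adjusted p = 0.378 by edgeR).

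Of the base subunits that are not ATPases, the scaffold Psmd2 and the ubiquitin receptor Psmd4 rose. Psmd2 had 410.4, 397 and 406 CPM in the HA-NUR77 libraries, against 332, 323 and 346 CPM in the GFP libraries. Every HA-NUR77 library was above every GFP library, and the difference was 1.21-fold (log2 fold change 0.28, SE 0.068, adjusted p = 0.0226 by edgeR). Psmd4 was 1.16-fold higher (edgeR adjusted p = 0.0449), with 181, 181 and 191 CPM in the HA-NUR77 libraries, against 152, 164 and 160.2 CPM in the GFP libraries. Psmd1, the other scaffold, did not pass (log2 fold change 0.11, adjusted p = 0.252 by edgeR).

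In the lid, 2 of 8 subunits rose, Psmd8 and Psmd13. Psmd8 had 277, 273 and 286 CPM in the HA-NUR77 libraries, against 189.8, 205 and 243 CPM in the GFP libraries. The 3 HA-NUR77 libraries lay close together while the GFP libraries spread, GFP 1 being lowest, and the groups did not overlap. The difference was 1.31-fold (log2 fold change 0.39, SE 0.099, adjusted p = 0.0257 by edgeR). Psmd13 had 129, 128 and 139.9 CPM in the HA-NUR77 libraries, against 99.3, 106 and 113 CPM in the GFP libraries, with no overlap, and was 1.25-fold higher (log2 fold change 0.32, SE 0.074, adjusted p = 0.0192 by edgeR). Psmd14, the enzyme that cuts ubiquitin off the substrate, did not pass (log2 fold change 0.079, adjusted p = 0.435 by edgeR). Nor did Psmd3, Psmd6, Psmd7, Psmd11 and Psmd12, whose log2 fold changes lay between 0.11 (Psmd11) and 0.24 (Psmd6).

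Psmc5 and Psmd8 are the regulatory genes with YY1 letters in their windows, which lie at chr11:106255935-106256234 (plus strand) for Psmc5 and chr7:29180624-29180923 (minus strand) for Psmd8. Psme2, the subunit with the largest fold change, has none of the searched letters in its window at chr14:55591052-55591351 (minus strand), which is shown for contrast.
Psmc5: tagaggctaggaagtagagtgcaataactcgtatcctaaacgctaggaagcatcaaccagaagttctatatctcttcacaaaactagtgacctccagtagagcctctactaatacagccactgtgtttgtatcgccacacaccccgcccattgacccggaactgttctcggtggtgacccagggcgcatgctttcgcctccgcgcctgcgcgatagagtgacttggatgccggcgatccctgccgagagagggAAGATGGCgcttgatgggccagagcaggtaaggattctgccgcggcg
Psmd8: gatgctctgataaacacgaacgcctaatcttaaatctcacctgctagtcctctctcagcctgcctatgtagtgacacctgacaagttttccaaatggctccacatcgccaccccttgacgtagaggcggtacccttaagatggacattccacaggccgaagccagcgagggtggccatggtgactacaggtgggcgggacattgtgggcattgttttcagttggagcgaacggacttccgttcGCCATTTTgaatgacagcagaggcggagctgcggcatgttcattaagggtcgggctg
Psme2: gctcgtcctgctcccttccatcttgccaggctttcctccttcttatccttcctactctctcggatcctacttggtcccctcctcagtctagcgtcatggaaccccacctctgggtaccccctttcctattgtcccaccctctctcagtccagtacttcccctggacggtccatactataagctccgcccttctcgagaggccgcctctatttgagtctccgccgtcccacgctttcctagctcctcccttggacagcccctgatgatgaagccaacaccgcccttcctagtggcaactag
The capitals are GCCATNTT on the minus strand at base 4 after the start in Psmc5, and on the plus strand 7 bases before the start in Psmd8.

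RefSeq windows were matched for 33 of the 40 members, 32 of them among the tested. None was matched for Psma8, Psmb1, Psmb2, Psmb7, Psmc3, Psmd3 and Psmd7, so the shares below leave out Psmb1, Psmb7 and Psmc3, which rose. The first listed window of each gene was counted. The members were compared with 27025 mouse promoters of the same length, and with the 9658 of them whose genes were tested. The ETS letters were in 11 of the 32 (34.4%), against 9.12% of all and 18.7% of tested promoters. They were in 4 of the 14 risen members with a window, Psmc1, Psmd2, Psmd4 and Psmd13. The others with ETS letters, Psmc2, Psmc6, Psmd6, Psmd11, Psmd12, Psme3 and Psme4, did not pass. GCCATNTT was in 6 of the 32 (18.8%), against 6.23% of all and 9.06% of tested promoters, the 6 being Psma2, Psma4, Psmb5, Psmb6, Psmc5 and Psmd8. TGACNNNGC was in 6 of the 32 (18.8%), against 12.5% of all and 14.8% of tested promoters. Of these 6, Psmb5 and Psmb6 rose, and Psmc6, Psmd9, Psmd12 and Psme4 did not pass. Psmc6, Psmd9 and Psme4 had negative log2 fold changes. The CCAAT box was in 12 of the 32 (37.5%), against 37.9% of all and 39.0% of tested promoters, and GAAANNGAA in 5 of the 32 (15.6%), against 8.57% of all and 6.93% of tested promoters. In windows not counted, Psma6 also has the ETS letters and Psmc2 also has GAAANNGAA. AAAGGTCA was in 0 of the 32, against 1.46% of all and 0.828% of tested promoters. GAAANNGAA was added after the values of Psme2 had been seen. No match overlapped a match of another motif, and a match describes letters, not binding.

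The assembly chaperones of the regulatory particle, Psmd5, Psmd9 and Psmd10, did not pass by edgeR, DESeq2 or limma-voom, and 1 of the 3, Psmd5, had an unadjusted p under 0.05. Psmd5 had 58.8, 60.9 and 59.8 CPM in the HA-NUR77 libraries, against 48.6, 52.6 and 54.9 CPM in the GFP libraries. Its groups did not overlap, and its log2 fold change was 0.20, adjusted p = 0.0666 by edgeR. Psmd9 had 26.8, 26.3 and 26.7 CPM in the HA-NUR77 libraries, against 28.7, 26.3 and 27.0 CPM in the GFP libraries, and Psmd10 had 33.8, 35.8 and 35.5 CPM in the HA-NUR77 libraries, against 31.0, 38.3 and 33.1 CPM in the GFP libraries. Both overlapped between groups, and the 95% interval of the fold change was 0.865 to 1.09 for Psmd9 and 0.885 to 1.19 for Psmd10.

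Of the 4 alternative activators, Psme2 rose. Psme2 (ENSMUSG00000079197, chr14:55587441-55591113, minus strand) encodes the beta subunit of PA28, an interferon-inducible ring that opens the core for short peptides. It had 84.1, 97.4 and 72.7 CPM in the HA-NUR77 libraries, against 49.3, 51.4 and 48.2 CPM in the GFP libraries. The lowest HA-NUR77 library was well above the highest GFP library, while the HA-NUR77 libraries differed among themselves, replicate 2 being highest and replicate 3 lowest. Psme2 was 1.71-fold higher (95% interval 1.44 to 2.03; log2 fold change 0.77, SE 0.11, adjusted p = 0.0031 by edgeR), the largest fold change of the 38. Its partner Psme1 (ENSMUSG00000022216, chr14:55578123-55581529, plus strand), the alpha subunit of the same ring, had 48.1, 53.4 and 35.4 CPM in the HA-NUR77 libraries, against 38.3, 46.0 and 34.0 CPM in the GFP libraries. These groups overlapped, and Psme1 did not pass (fold change 95% interval 0.885 to 1.52; log2 fold change 0.22, adjusted p = 0.368 by edgeR). Whether Psme2 and Psme1 differ in their change was not tested.

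Psme3, the nuclear activator PA28 gamma, had 122, 121 and 118 CPM in the HA-NUR77 libraries, against 103, 104 and 113 CPM in the GFP libraries. The groups were separate, and the log2 fold change was 0.17, adjusted p = 0.0882 by edgeR. Psme4, the nuclear activator PA200, had 296, 233 and 327 CPM in the HA-NUR77 libraries, against 312, 296 and 339 CPM in the GFP libraries. It overlapped between groups, with each HA-NUR77 library below the GFP library of the same number (fold change 95% interval 0.734 to 1.11; log2 fold change -0.15, adjusted p = 0.423 by edgeR).

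**Figure D2:**
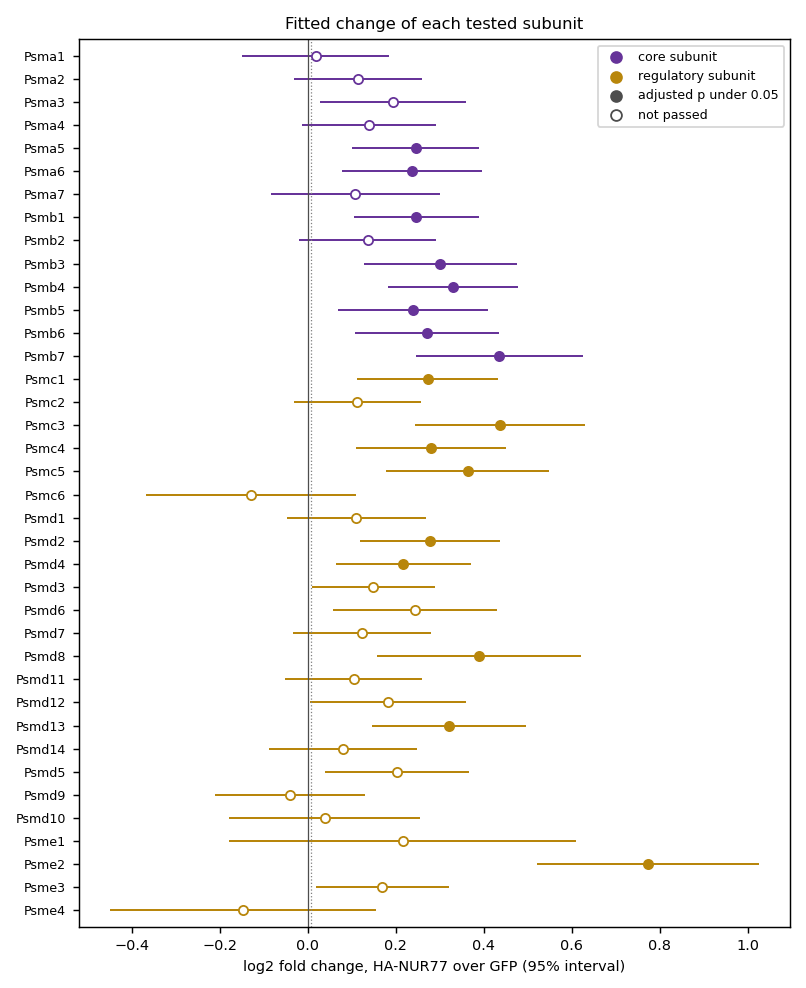
Fitted log2 fold change of each tested subunit, HA-NUR77 over GFP, with its 95% interval, by role in the complex. Filled symbols passed the threshold (edgeR adjusted p under 0.05), and the dotted line is the median over all genes tested. The filled ones include 6 of 7 beta and 4 of 6 ATPase subunits, and Psme2 lies furthest right.

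Of the inducible subunits that the rule leaves out, Psmb8 and Psmb9 were low in both groups. Psmb10, the interferon-inducible counterpart of Psmb7, had 28.1, 33.5 and 21.8 CPM in the HA-NUR77 libraries, against 16.6, 16.9 and 15.3 CPM in the GFP libraries. The groups were separate, and Psmb10 was 1.72-fold higher (log2 fold change 0.78, SE 0.15, adjusted p = 0.0116 by edgeR). Psmb8, the counterpart of Psmb5, had 28, 41 and 7 reads in the HA-NUR77 libraries and 4, 10 and 7 reads in the GFP libraries, and did not pass (log2 fold change 1.50, adjusted p = 0.0779 by edgeR), though it passed with the replicate number as a block. Psmb9, the counterpart of Psmb6, had 4, 3 and 3 reads in the HA-NUR77 libraries and 0, 1 and 1 reads in the GFP libraries, too few to be tested. In CPM, replicate 2 was highest and replicate 3 lowest for Psme1, Psme2 and Psmb10 in both HA-NUR77 and GFP cells; Psmb8 had this order in HA-NUR77 cells, and Psmb9 in neither.

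Subunits of one complex did not have equal message levels. Per kilobase of principal transcript, core levels lay between 46.6 (Psma2) and 207 (Psmb6) CPM per kb in HA-NUR77 cells. In GFP cells they lay between 43.0 (Psma2) and 172 (Psmb6) CPM per kb. The principal transcript taken was 2911 bases for Psma2 and 798 for Psmb6, whose mean levels in HA-NUR77 cells were 135.5 and 165 CPM. Ranks and ratios per kilobase thus depend on the transcript length chosen, and no other length was used for them. Among the 17 subunits of the regulatory particle, Psmd11 was lowest at 49.9 CPM per kb in HA-NUR77 cells and 46.4 CPM per kb in GFP cells. Psmc3 was highest at 347 CPM per kb in HA-NUR77 cells and 256 CPM per kb in GFP cells. The ratio of highest to lowest level was 4.45 in HA-NUR77 cells and 3.99 in GFP cells for the core, and 6.96 in HA-NUR77 cells and 5.53 in GFP cells for the regulatory particle. The chaperones were far lower, at 24.5 (Psmd10), 13.6 (Psmd5) and 10.2 (Psmd9) CPM per kb in HA-NUR77 cells and 23.9 (Psmd10), 11.8 (Psmd5) and 10.5 (Psmd9) CPM per kb in GFP cells. The order of levels was nearly the same in both lines, with Spearman's rho across genes of 0.978 over the 14 core subunits and 0.953 over the 17 of the regulatory particle. These points share libraries and gene lengths.

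**Figure D3:**
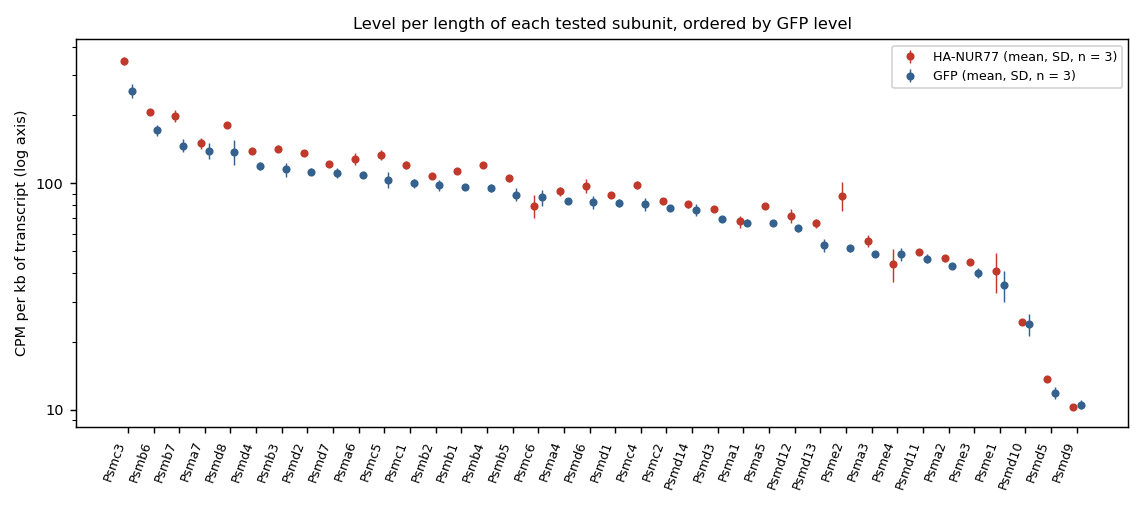
Mean level per kilobase of principal transcript (CPM per kb, log axis) of each tested subunit in HA-NUR77 and GFP cells (points, mean; bars, SD; n = 3 libraries each), ordered by GFP level. Psmc3 and Psmb6 are highest in their classes, the chaperones are lowest, and the groups keep nearly the same order.

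Proteasome transcripts are short, and fold changes can vary with transcript length. The median principal transcript was 1162 bases over the core and 1710.0 bases over the regulatory subunits, against 3011 bases over all genes tested. The offset used another length, that of the merged exons of all transcripts of a gene. Its median was 2335 bases over the core and 2884 over the regulatory subunits, against 4493 over all genes tested. For Psmb7 it was 3421 bases, against 1160 for the principal transcript. An offset by principal transcript length was not fitted. With an offset for length and GC content, 3 core subunits (Psmb1, Psmb7 and Psma3) and 7 regulatory subunits (Psmc3, Psmd2, Psmd3, Psmd5, Psmd8, Psmd13 and Psme2) passed as higher, beside 13.4% of all genes tested. The median log2 fold change of the core was then 0.099 and that of the regulatory subunits 0.15, against 0.025 over all genes tested. Psmb7 kept a fold change of 1.35 and Psmc3, Psmd8 and Psme2 stayed past the threshold, whereas Psma5, Psma6, Psmb3, Psmb4, Psmb5, Psmb6, Psmc1, Psmc4, Psmc5 and Psmd4 no longer passed. Psma1, Psmb2 and Psmd10 then had negative log2 fold changes and Psmd9 and Psme4 positive ones, none past the threshold.

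**Figure D4:**
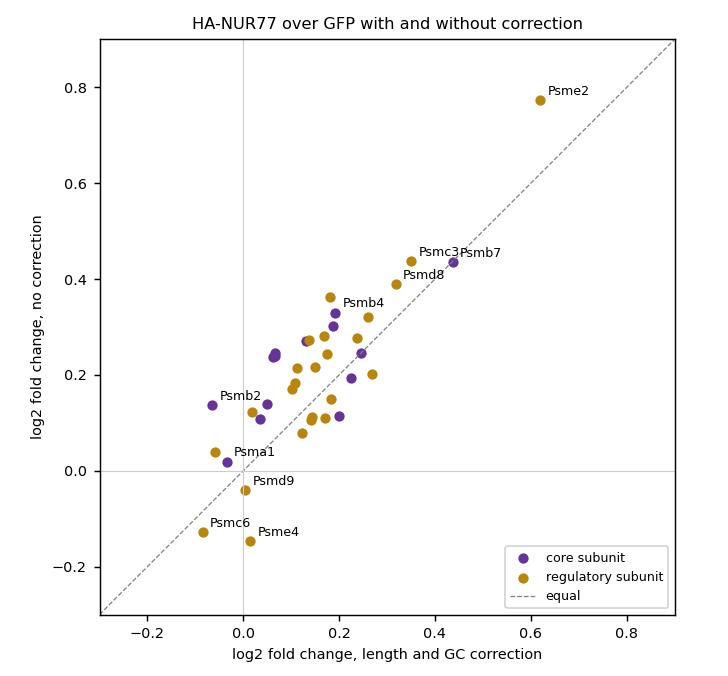
Log2 fold change of each tested subunit, HA-NUR77 over GFP, with (horizontal axis) and without (vertical axis) the offset for merged exon length and GC content. The dashed line marks equal values. Most core points lie above the line, their median being 0.24 without and 0.099 with the offset, and Psmb7 lies on it.

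Samples with the same number deviated together, so the numbers were also fitted as a block, which kept all 17 calls and added others. With the block 9 core and 15 regulatory subunits passed as higher, beside 23.5% of all genes tested. The added ones were Psma3 in the core and Psmd3, Psmd5, Psmd6, Psmd12, Psme1 and Psme3 among the regulatory subunits. None passed as lower with the block, but 1 base ATPase and 1 activator were lower at an unadjusted p under 0.05. These were Psmc6 (adjusted p = 0.0618 by edgeR with the block) and Psme4 (adjusted p = 0.0656 by the same fit). Within pairs 1, 2 and 3 the core sum in HA-NUR77 cells was 1.22, 1.11 and 1.19 times that in GFP cells, and the regulatory sum 1.20, 1.14 and 1.13 times. Single libraries mattered: the core count was 2 without HA-NUR77 1, 3 without HA-NUR77 3, 2 without GFP 1 and 3 without GFP 2, and the regulatory count was 3, 3, 2 and 2 in the same order. Over all genes tested, the count of higher genes also went down, from 1549 to 672, 1049, 642 and 927 in the same order. Psmb1, Psmb3, Psmb6, Psmc1, Psmc4, Psmd2, Psmd8 and Psmd13 lost their call when any one of these 4 libraries was left out. Psmc5 lost it without GFP 1 or GFP 2, and Psma5 without HA-NUR77 1, GFP 1 or GFP 3. Leaving out any library except HA-NUR77 2 ended the call of Psma6, any except GFP 3 that of Psmb5, and any of the 6 that of Psmd4. Psmb4, Psmb7, Psmc3 and Psme2 passed in all 6 fits that left out a library, and Psmb7, Psmc3 and Psme2 passed in all 16 alternatives.

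**Figure D5:**
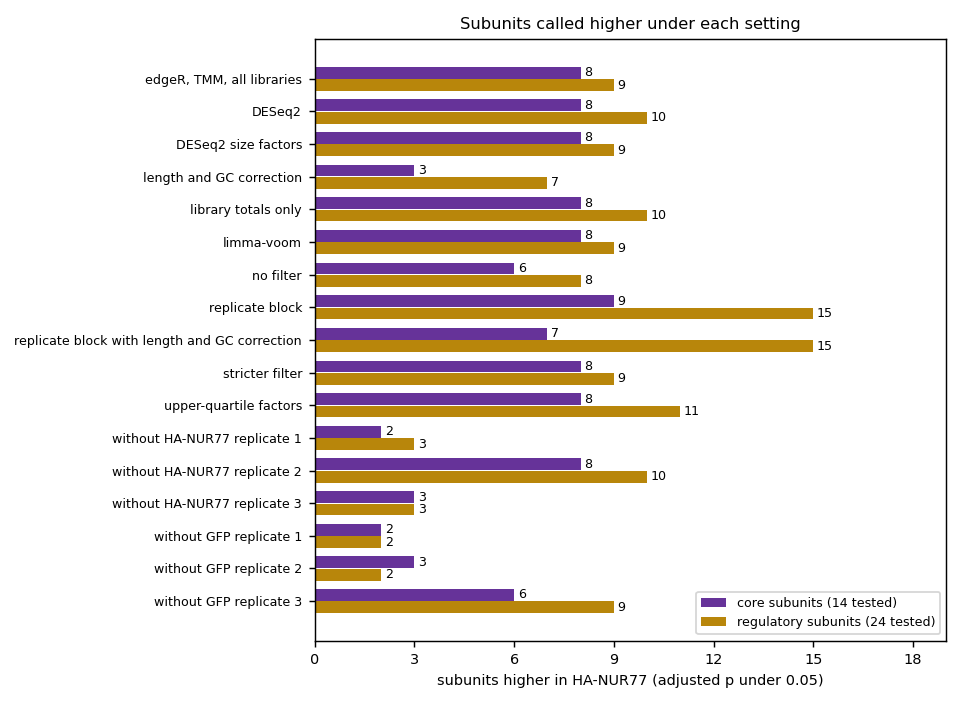
Number of core (of 14) and regulatory (of 24) subunits called higher in HA-NUR77 cells under each processing setting. Leaving out a single library gives 2 to 8 core and 2 to 10 regulatory calls, and the replicate block gives 9 and 15. Over all genes tested, higher calls number 1549 with all libraries, 642 to 1489 without a library and 2942 with the block.

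Reads could be shared with other genes in places. By BLAST, 13 of the 40 members have another annotated gene at 95% identity or more over at least 100 bases, among them 8 of the 17 that rose. For Psmb7 (Nek6), Psmd1 (Gm21972) and Psmd13 (Sirt3) the only such gene shares exon bases at the same locus, as counted below. The matches of Psmb11 were stretches of 107 to 146 bases. For Psme2 the copy is Psme2b, 99.4% identical over 794 bases, which had 36 reads over all libraries beside 7162 for Psme2. Exon bases overlap another gene for 10 members, 9 of them with a gene on the opposite strand. The kit keeps strand, but the sources used here do not say whether counting used it. Psmb7 shares 405 exon bases with Nek6 (log2 fold change -0.30, adjusted p = 0.0534 by edgeR), and Psmc3 shares 215 with Slc39a13 (log2 fold change -0.16, adjusted p = 0.18 by edgeR), and neither partner passed.

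Beside the subunits of the rule, 45 genes that build or serve the proteasome were tested, the inducible subunits among them. Of these, 6 rose (13.3%) and 3 fell, beside 12.4% and 13.2% of all genes tested. With the replicate block 14 passed as higher (31.1%) and 7 as lower (15.6%), beside 23.5% and 24.6% of all genes tested. Among 9 subunits and assembly factors outside the rule, Pomp, which guides maturation of the core, rose 1.22-fold (edgeR adjusted p = 0.0274), with a mean of 102 ± 5.64 CPM in HA-NUR77 cells and 83.8 ± 4.23 CPM in GFP cells. Psmg3, a chaperone of the alpha ring, rose 1.43-fold (edgeR adjusted p = 0.0224), with a mean of 7.92 ± 0.497 CPM in HA-NUR77 cells and 5.56 ± 0.306 CPM in GFP cells. Pomp lost its call without HA-NUR77 1, HA-NUR77 3, GFP 1 or GFP 2, and Psmg3 without any library except GFP 3. Ecpas, the most abundant of these 9, had a log2 fold change of 0.12, adjusted p = 0.283 by edgeR.

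The transcription factors that drive proteasome genes did not rise by edgeR, DESeq2 or limma-voom, nor at an unadjusted p under 0.05. Nfe2l1, the main activator of subunit genes when the proteasome is impaired, averaged 879 ± 77.5 CPM in HA-NUR77 cells and 845 ± 95.8 CPM in GFP cells (log2 fold change 0.057, adjusted p = 0.727 by edgeR). Ddi2, the protease that releases active NFE2L1, fell, with 67.9, 64.3 and 66.3 CPM in the HA-NUR77 libraries, against 83.6, 77.0 and 78.8 CPM in the GFP libraries. These groups did not overlap (log2 fold change -0.27, adjusted p = 0.0213 by edgeR). Ddi2 did not pass with the length and GC correction, nor without GFP 1 or any one HA-NUR77 library. Nfe2l2 had a log2 fold change of 0.042, adjusted p = 0.696 by edgeR.

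Upstream, Rps27a, a ubiquitin fusion gene, rose 1.25-fold (edgeR adjusted p = 0.043), with a mean of 230.1 ± 18.7 CPM in HA-NUR77 cells and 185 ± 16.7 CPM in GFP cells. Uba6, an alternative ubiquitin-activating enzyme, fell, with 32.2, 24.4 and 31.9 CPM in the HA-NUR77 libraries, against 49.8, 39.1 and 50.3 CPM in the GFP libraries (log2 fold change -0.66, adjusted p = 0.016 by edgeR). Rps27a did not pass with the length and GC correction, nor without any library except GFP 2, and Uba6 did not pass without GFP 1. None of the 4 proteasome-bound ubiquitin enzymes (Uchl5, Usp14, Ube3c and Ube3a) passed in either direction by edgeR, DESeq2 or limma-voom, nor at an unadjusted p under 0.05. Ube3a passed as lower with the replicate block, but not with the length and GC correction added; its log2 fold change was -0.32 without and 0.13 with that correction alone. Usp14 passed as higher in 1 of the 16 alternatives, the block with that correction.

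Of 12 ubiquitin ligases known from muscle, Stub1 rose and Traf6 fell. Stub1, a ligase for misfolded proteins, averaged 86.2 ± 3.35 CPM in HA-NUR77 cells and 71.9 ± 1.15 CPM in GFP cells (log2 fold change 0.26, adjusted p = 0.0212 by edgeR). Traf6, a ligase of inflammatory signalling, averaged 46.1 ± 2.65 CPM in HA-NUR77 cells and 55.0 ± 2.26 CPM in GFP cells (log2 fold change -0.25, adjusted p = 0.0388 by edgeR). The atrophy ligases Fbxo32 and Trim63 did not pass, with log2 fold changes of 0.22, adjusted p = 0.353 for Fbxo32 and 0.047, adjusted p = 0.842 for Trim63 by edgeR; Fbxo32 passed as higher with the replicate block. Stub1 lost its call without HA-NUR77 1, GFP 1 or GFP 2. Traf6 lost its call with upper-quartile factors, with no filter, with the length and GC correction, and without any library except HA-NUR77 2. Nedd4, the most abundant of the list, averaged 1457 ± 62.9 CPM in HA-NUR77 cells and 1749 ± 155 CPM in GFP cells (log2 fold change -0.26, adjusted p = 0.0837 by edgeR) and passed as lower with the replicate block, but not with the length and GC correction added.

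The libraries held 13906096 to 22821446 counted reads in HA-NUR77 cells and 14626157 to 16797515 in GFP cells. Mouse Nr4a1 did not pass (0.14 on the log2 scale, adjusted p = 0.698 by edgeR); the labels do not give the species of the NUR77 insert, so this value does not check them. Myoblast markers were present, and 2 of 7, Itga7 and Cdh15, were higher, with summed levels of 7651 to 8629 CPM in HA-NUR77 cells and 4989 to 6723 CPM in GFP cells. Of 5 markers of differentiating muscle 1, Myh3, was higher, and the list summed to 7775 to 9379 CPM in HA-NUR77 cells and 4805 to 7083 CPM in GFP cells. With the replicate block 5 of the 7 myoblast markers were higher and 1, Myf5, lower, and 4 of the 5 differentiation markers, all but Myog, were higher. The part of these muscle genes in the proteasome result was not tested. Macrophage markers summed to 1.94 to 3.31 CPM in HA-NUR77 cells and 0.83 to 1.58 CPM in GFP cells, with Csf1r higher, Adgre1 at 0 in 5 libraries and Ptprc at 1 read in each. Epithelial markers summed to 3.09 to 3.77 CPM in HA-NUR77 cells and 9.73 to 12.8 CPM in GFP cells, with Krt14 and Cdh1 lower and Epcam at 0. Lymphocyte and endothelial lists stayed below 1 CPM and adipocyte markers were at 0.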

How the data were processed

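Polyadenylated RNA of C2C12 cells was sequenced in 6 libraries, 3 HA-NUR77 and 3 GFP. The values are raw read counts per gene as deposited by the authors, 1 table per library. Per the submitters' processing notes, TopHat2 (version 2.1), HTSeq and DESeq2 were used with build mm10. The annotation release and the strand setting of the counting are not given in the sources used here. Symbols came from GENCODE M21, which matched 22888 of 23154 identifiers, and 3275 genes had no reads. Paaf1 is not used here.

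Genes with enough reads (edgeR filterByExpr, minimum count 10) were normalized by TMM and tested, HA-NUR77 against GFP, with edgeR 4.0.16 in R 4.3.3 (robust quasi-likelihood fit, Benjamini-Hochberg over 12509 genes). Alternatives used other scaling factors, filters, DESeq2 1.42.0 and limma 3.58.1 (voom). Others used spline offsets for merged exon length and GC content, a replicate block and each library left out. The scripts were tested on simulated data. Deviations of same-numbered libraries from their group means correlated at 0.25, 0.551 and 0.475, all above 0.1. The numbers were therefore taken to pair the samples in the block fits, while the main fit did not use them. The pairing comes from the replicate numbers in the titles. Libraries of a group differed by more than sampling noise (chi-square over its degrees of freedom at least 10.9), so none was a repeat of another library. This value cannot show whether the libraries came from separate dishes. Levels per length are CPM divided by the GENCODE principal transcript length, and near-identical stretches in other genes were found with BLAST 2.17.0. Promoter windows are RefSeq's on GRCm38.p6.

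The members and gene lists were chosen with earlier results of these data known. Genes described by library were the 6 core and 8 regulatory subunits with the smallest adjusted p among those that passed, the catalytic subunits, the chaperones and the activators; Psmd4 and Psmc6 were added after their values were seen. Of the other pathway lists, genes that passed and the most abundant gene were named, except 1 gene that is not reported here, together with Nfe2l2, Psmb8, Psmb9, Fbxo32 and Trim63, which were picked for their roles after the values were seen.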

Additional observations from a re-analysis of the deposited data

How the results depend on the processing

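With the replicate block, 2942 genes were higher and 3071 lower, 15 regulatory subunits were higher, and of the other pathway genes 14 were higher and 7 lower. With the block and the length and GC correction together, 3244 genes were higher and 2708 lower, 15 regulatory subunits were higher, 19 other pathway genes were higher and 7 lower, and the median log2 fold change was 0.099 for core and 0.14 for regulatory subunits. The block has 2 residual degrees of freedom, against 4 without it. The length and GC correction gave 3 core subunits and medians of 0.099 (core) and 0.15 (regulatory). DESeq2 gave 5 other pathway genes as lower. Leaving out a library gave 642 to 1489 genes higher and 850.0 to 1572 lower, 2 to 8 core and 2 to 10 regulatory subunits higher, 2 to 5 other pathway genes higher and 0 to 4 lower, and medians of 0.20 to 0.25 (core) and 0.15 to 0.20 (regulatory). Such fits rest on fewer samples.

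Of the 38 subunits and the pathway genes named by rule, the sign of the log2 fold change turned for 5 subunits and Nfe2l1, none past the threshold in a fit that turned it. Of all 45 other pathway genes, 7 turned with the length and GC correction, among them Ube3a (0.13), Usp14 (0.18) and Trim63 (-0.037). With the length and GC correction it was -0.034 for Psma1, -0.065 for Psmb2, 0.0039 for Psmd9, -0.058 for Psmd10 and 0.014 for Psme4. With the block added to that correction it was -0.036 for Psma1, -0.065 for Psmb2, 0.0046 for Psmd9, -0.059 for Psmd10 and 0.012 for Psme4. Without HA-NUR77 replicate 3 it was -0.019 for Psma1 and -0.016 for Nfe2l1, without GFP replicate 3 it was -0.017 for Psma1, and without GFP replicate 1 it was -0.027 for Psmd10 and -0.0018 for Nfe2l1. Over the 6 fits without a library the values ran from -0.019 to 0.068 for Psma1, from -0.027 to 0.13 for Psmd10 and from -0.016 to 0.15 for Nfe2l1. The cause was not tested. Over single core subunits, 177 of 224 values kept direction and call, and over single regulatory subunits 323 of 384.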

Other observations

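A730017L22Rik, a processed transcript 97.9% identical to Psmd11 over 1503 bases, had 767 reads over all libraries beside 14082 for Psmd11. It was lower in HA-NUR77 cells (log2 fold change -0.81, SE 0.15, edgeR adjusted p = 0.00978), while the log2 fold change of Psmd11 was 0.11 (edgeR adjusted p = 0.268). The split of reads between such copies is uncertain.

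Htr2b, a serotonin receptor gene that shares 252 exon bases with Psmd1 on the opposite strand, was lower in HA-NUR77 cells (log2 fold change -2.12, edgeR adjusted p = 0.000388), while Psmd1 did not pass (log2 fold change 0.11, edgeR adjusted p = 0.252). Sirt3, which shares 342 exon bases with Psmd13 on the opposite strand, had a log2 fold change of 0.30 (edgeR adjusted p = 0.224).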
